A study of Mus musculus with 6 samples.

Results

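The brain endothelium was followed here through 10 genes of the cortical RNA-seq data, chosen by symbol: *Cldn5*, *Ocln* and *Tjp1* for the junctions between cells, *Slc2a1*, *Mfsd2a* and *Abcb1a* for transport, *Pecam1* and *Vwf* for endothelial identity, and *Icam1* and *Vcam1* for leukocyte adhesion. All 10 were found among the 23366 genes of the table and all 10 passed the filter for testing, with a mean of at least 0.5 FPKM (fragments per kilobase of transcript, scaled to the size of the library) over the 6 mice. The data came from the cortex of 3 microglia-depleted mice at d10 (A4 to A6) and of 3 littermate controls (A1 to A3), each sequenced as a separate library. All mice had a C57BL/6 background and carried CX3CR1-CreERT2+/-, a tamoxifen-inducible Cre under the promoter of a fractalkine receptor that microglia express strongly and other myeloid cells share. The depleted mice also carried iDTR+/-, a diphtheria toxin receptor behind a floxed stop. According to the methods, both genotypes were given tamoxifen and depletion was induced with diphtheria toxin, and whether the control mice received the toxin is not given in the sources used here, so the toxin and the depletion cannot be told apart. The mice were age- and sex-matched, with no age given, and the cortex was described as frontal. By d10 microglia had repopulated the tissue according to the study, so these samples do not lack microglia.

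Endothelial cells of brain capillaries form the blood-brain barrier. Their neighbouring membranes are sealed by tight junctions, built from claudins and occludin and anchored to the actin skeleton by ZO proteins. Nutrients cross through dedicated carriers, while efflux pumps return many drugs to the blood and vesicle traffic through the cell is kept low. The same cells display adhesion molecules that bind leukocyte integrins, and inflammatory cytokines raise them. Pericytes, astrocyte endfeet and Wnt ligands from neural cells maintain these properties.

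None of the 10 genes differed between depleted and control cortex at an adjusted p-value under 0.1 in limma on log2(FPKM + 1), where 0.0278% of the 14385 genes tested did. *Cldn5* alone reached an unadjusted p-value under 0.05. Of the 10 genes, 1 was therefore higher at that level, against 4.79% of all genes tested, and 0 were lower, against 5.74%. The same fit called none of 14 interferon response genes, although 12 of them had an unadjusted p-value under 0.05 in limma. A gene not called can therefore still differ. All depleted mice lay above all control mice in 2 of 10 genes, *Cldn5* and *Abcb1a*, where 8.21% of all genes tested lay apart in this direction, and 0 of the 10 lay apart in the other direction, against 9.38%. The mean was higher in depleted mice in 8 genes and lower in 2, *Ocln* and *Mfsd2a*, and the median log2 fold change of the 10 was 0.12, beside -0.0085 for all genes tested. Relative to the control mean, the 10 genes had a median log2 difference of 0.26 in A4 against 0.038 in A5 and 0.029 in A6, and without A4 the median log2 fold change was 0.043. In whole tissue, a difference in the number of endothelial cells and one in RNA per cell cannot be told apart.

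The libraries differed in ways that bear on these values. The spacing of low FPKM values gave about 14.5 to 20.5 M fragments per control library and 7.2 to 13.8 M per depleted library, with A5 the shallowest. These totals are estimates, and the methods state the same read coverage for every sample. The summed FPKM of 14 interferon response genes was 31.9 to 44.3 in control mice, 456.8 in A4, 89.4 in A5 and 82.6 in A6. *Xist* was at 4.74 FPKM in A3 and at 30.86 to 46.66 in the other mice, and the summed FPKM of 4 Y-linked genes was 5.56 in A4 and at most 0.16 elsewhere, although the groups were sex-matched according to the methods. Summed choroid plexus markers were at 167.9 to 324.6 FPKM in control and 45.5 to 70.7 FPKM in depleted mice. Summed haemoglobin and other red blood cell markers were at 57.6 to 105 FPKM in control mice, with A4 at 14.4, A5 at 83.8 and A6 at 103.6 FPKM. The part of depth, sex-linked differences, choroid plexus or blood content in the results was not tested. Neuronal markers summed to 2867.2 to 3592.3 FPKM, and 9 microglia markers summed to 97.1 to 118.4 FPKM in control and 99.2 to 130.7 FPKM in depleted mice. Oligodendrocyte markers summed to 2879.8 to 3130.1 FPKM in control and 2521.2 to 2589.8 FPKM in depleted mice, and blood monocyte and T cell markers to 6.48 to 7.72 and 4.35 to 8.90 FPKM.

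The levels of the 10 genes spanned a wide range. In control mice *Slc2a1* had the highest mean level at 28.9 FPKM, followed by *Tjp1* at 13.3 and *Mfsd2a* at 12.5, then *Vcam1* at 7.95 and *Cldn5* at 6.68, then *Abcb1a* at 3.25, *Pecam1* at 2.14 and *Ocln* at 1.76, and finally *Vwf* at 1.11 and *Icam1* at 0.897. The control mice of *Tjp1* and *Mfsd2a* overlapped, as did those of *Pecam1* and *Ocln* and those of *Vwf* and *Icam1*, while the other neighbours in this order were apart in all 3 mice. FPKM is scaled by transcript length, so these levels can be set beside each other. They are levels of whole cortex, and *Tjp1*, *Slc2a1*, *Icam1* and *Vcam1* are also known from cells other than endothelium.

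**Figure D1:**
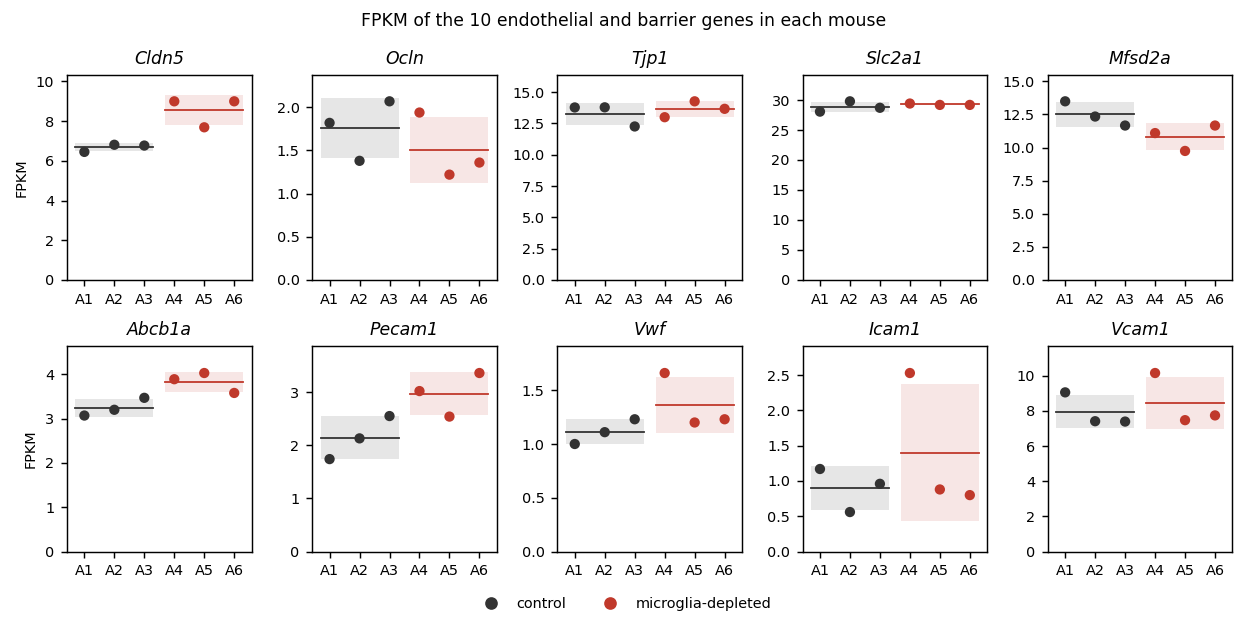
FPKM (y axis, from 0) of the 10 genes in each mouse (x axis), with the control mice in black and the microglia-depleted mice in red. Lines are group means and bands are 1 SD (n = 3). *Cldn5* and *Abcb1a* lie apart between the groups, *Slc2a1* stays between 28.07 and 29.79 FPKM, and *Icam1* stands out in A4 at 2.53 FPKM.

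Among the 3 junction members, *Cldn5* differed most. It encodes claudin-5, the main sealing claudin of brain endothelium. Control levels were 6.45 (A1), 6.81 (A2) and 6.77 FPKM (A3), and depleted levels 9.0 (A4), 7.69 (A5) and 9.0 FPKM (A6). The values of the other genes follow the same order of mice. The lowest depleted mouse was thus above the highest control mouse, and the depleted mice were more spread than the control mice. The control mean was 6.68 ± 0.197 FPKM and the depleted mean 8.56 ± 0.756 FPKM (SD, n = 3 each). The log2 fold change of FPKM + 1 was 0.31 (standard error 0.10, 95% interval 0.078 to 0.55, unadjusted p = 0.0152 and adjusted p = 0.394 in limma). Over the alternatives, the adjusted p-value ran from 0.228 to 0.892, and the log2 fold change from 0.28 without A4 to 0.44 after a correction for GC content. The exact two-sided permutation test gave p = 0.1, the smallest that 3 mice against 3 allow. Assuming its 1 annotated transcript, between 78 fragments in A5 and 198 in A2 lay behind these values.

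The 250 bases before the start of *Cldn5* are shown because this gene had the lowest p-value of the 10. They come from RefSeq's GRCm38.p6 table, while the submitters' processing notes name mm9 for the expression values. The region is chr16:18776597-18776846 on the + strand, and capitals would mark a match to the NF-kB consensus, the ISRE, the GAS (TTCNNNGAA), the AP-1 site (TGANTCA) or the TATA box (TATAAA) on either strand. There was no exact match in this window, and near matches were not counted.
Cldn5: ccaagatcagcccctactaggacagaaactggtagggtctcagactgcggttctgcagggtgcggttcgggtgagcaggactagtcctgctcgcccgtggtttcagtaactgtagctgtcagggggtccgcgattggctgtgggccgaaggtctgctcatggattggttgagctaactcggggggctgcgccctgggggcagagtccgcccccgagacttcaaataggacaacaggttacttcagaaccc

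The other junction members differed less between the groups than within them. *Ocln*, which encodes occludin, a second membrane protein of tight junctions, was at 1.82, 1.38 and 2.07 FPKM in control and 1.94, 1.22 and 1.36 FPKM in depleted mice. Mice of both groups were found at the low and at the high end, with A3 highest and A5 lowest. Its log2 fold change was -0.14 (standard error 0.17, adjusted p = 0.797 in limma), and it rests on an estimated 36 fragments in A5 against 107 to 153 in control mice. *Tjp1* encodes ZO-1, the scaffold below the junction, and was at 13.78, 13.79 and 12.26 FPKM in control and 13.00, 14.27 and 13.67 FPKM in depleted mice. The groups overlapped, with A5 above and A3 below the mice of the other group. Its log2 fold change was 0.038 (95% interval -0.17 to 0.25, adjusted p = 0.908 in limma), which turned to -0.014 without A3.

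The junction genes beyond the members were described from a list of 15, of which 13 were tested. The mean was higher in 8 and lower in 5, with a median log2 fold change of 0.028. None had an unadjusted p-value under 0.05 in limma. The lowest was *Jam2*, a junctional adhesion molecule of vessels, at 11.86, 11.41 and 11.17 FPKM in control and 6.09, 10.20 and 10.55 FPKM in depleted mice. Its log2 fold change was -0.36 (adjusted p = 0.517 in limma) and -0.13 without A4, which stood lowest.

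The transport genes did not move together. *Slc2a1* encodes GLUT1, the glucose carrier of the barrier, and was the steadiest of the 10 genes, at 28.07, 29.79 and 28.71 FPKM in control and 29.42, 29.19 and 29.19 FPKM in depleted mice. Its highest value was 1.06 times its lowest. The log2 fold change was 0.020 (standard error 0.071, adjusted p = 0.943 in limma), and its 95% interval corresponded to ratios of FPKM + 1 from 0.906 to 1.13. This was the narrowest interval of the 10 genes, and 685 or more estimated fragments lay behind each mouse's value.

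*Abcb1a* encodes P-glycoprotein, the efflux pump that returns drugs to the blood. It was at 3.07, 3.20 and 3.47 FPKM in control and 3.89, 4.03 and 3.58 FPKM in depleted mice, with all depleted mice above all control mice by a narrow margin. The log2 fold change was 0.19 (standard error 0.12, 95% interval -0.078 to 0.45, adjusted p = 0.597 in limma), and the exact two-sided permutation test gave p = 0.1, the smallest possible. Of the 75-base windows of its longest annotated transcript, 11.4% are shared with its paralog *Abcb1b*, so reads could have been split between them. The other 9 members share no such window, and exons of *Slc2a1*, *Abcb1a*, *Icam1* and *Vcam1* overlap an annotated gene on the opposite strand, whose reads cannot be told apart without strand. *Abcb1b* was at 0.64, 0.77 and 0.93 FPKM in control and 0.72, 0.46 and 1.01 FPKM in depleted mice. The sum of both was 3.71, 3.97 and 4.4 FPKM in control and 4.61, 4.49 and 4.59 FPKM in depleted mice, and it too lay apart (exact two-sided permutation test, p = 0.1).

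*Mfsd2a*, which encodes the lipid carrier that brings docosahexaenoic acid into the brain and restrains vesicle traffic in endothelium, was the member with the lowest log2 fold change. It was at 13.49, 12.34 and 11.66 FPKM in control and 11.09, 9.74 and 11.66 FPKM in depleted mice. The highest depleted mouse, A6, equalled the lowest control mouse, A3. The log2 fold change was -0.19 (standard error 0.10, 95% interval -0.43 to 0.045, adjusted p = 0.548 in limma) and ran from -0.25 to -0.12 over the alternatives.

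Of 18 further barrier transporters, 16 were tested, with a mean higher in 8 and lower in 8 and a median log2 fold change of -0.0038. Only *Slco2b1* had an unadjusted p-value under 0.05, 1 of the 16. It is an organic anion carrier, and was also the highest of the list, at 3.35, 2.71 and 2.59 FPKM in control and 3.85, 4.21 and 3.40 FPKM in depleted mice (log2 fold change 0.31, adjusted p = 0.466 in limma). The lowest was *Slc7a5*, the large neutral amino acid carrier, at 17.80, 18.80 and 17.66 FPKM in control and 16.63, 13.74 and 16.10 FPKM in depleted mice (log2 fold change -0.21, adjusted p = 0.480 in limma). Both lay apart between the groups, in opposite directions.

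**Figure D2:**
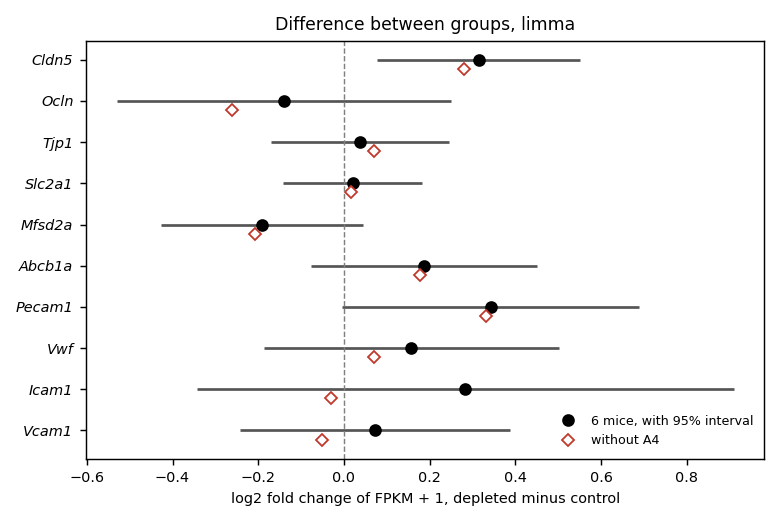
Log2 fold change of FPKM + 1, depleted minus control (x axis), for the 10 genes (y axis). Black points are the limma estimates from 6 mice with their 95% intervals, and open diamonds are the estimates without A4. The interval of *Cldn5* alone leaves 0 outside, and *Icam1* and *Vcam1* cross to the other side of 0 without A4.

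The identity genes were both higher on average in depleted mice, without passing the test. *Pecam1* encodes CD31, an adhesion protein of endothelial contacts that platelets and leukocytes also carry, and was at 1.74, 2.13 and 2.55 FPKM in control and 3.02, 2.54 and 3.36 FPKM in depleted mice. The groups overlapped only through A3 and A5, at 2.55 and 2.54 FPKM. The log2 fold change was 0.34 (standard error 0.15, 95% interval -0.0037 to 0.69, unadjusted p = 0.0520 and adjusted p = 0.476 in limma), or 0.33 without A4. *Vwf* encodes von Willebrand factor, the clotting protein stored in endothelium, and was at 1.00, 1.11 and 1.23 FPKM in control and 1.66, 1.20 and 1.23 FPKM in depleted mice. A4 was the highest, and A5 and A6 lay within the control range. Its log2 fold change was 0.16 (adjusted p = 0.731 in limma), or 0.069 without A4.

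These 2 genes were set beside 28 other genes of endothelial identity, of which 26 were tested. The mean was higher in 16 and lower in 10, with a median log2 fold change of 0.037, or 0.10 without A4. The only one with an unadjusted p-value under 0.05 was *Ly6a*, which encodes the surface protein Sca-1 and is known to respond to interferon, at 15.97, 18.90 and 13.97 FPKM in control and 29.18, 15.68 and 28.28 FPKM in depleted mice (log2 fold change 0.51, adjusted p = 0.468 in limma). A5 lay within the control range. The lowest was *Itm2a*, at 31.15, 29.53 and 28.66 FPKM in control and 20.39, 30.10 and 27.23 FPKM in depleted mice (log2 fold change -0.21, adjusted p = 0.605 in limma), or -0.054 without A4.

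The adhesion genes had their highest level in A4. *Icam1*, which encodes the ligand of the leukocyte integrin LFA-1 and is induced by inflammatory cytokines in endothelium, microglia and astrocytes, was at 1.17, 0.56 and 0.96 FPKM in control and 2.53, 0.88 and 0.80 FPKM in depleted mice. A4 alone was above the control range, and A5 and A6 lay inside it. The log2 fold change was 0.28 (standard error 0.27, 95% interval -0.34 to 0.91, adjusted p = 0.735 in limma) and -0.031 without A4. An estimated 16 to 89 fragments lay behind these values, the fewest of the 10 genes.

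*Vcam1*, whose product binds the integrin VLA-4, was at 9.05, 7.41 and 7.39 FPKM in control and 10.15, 7.47 and 7.74 FPKM in depleted mice. A4 was again the highest, followed by control mouse A1. Its log2 fold change was 0.073 (standard error 0.14, adjusted p = 0.878 in limma) and -0.052 without A4. A4 also had by far the highest sum of interferon response genes. Reactive astrocyte markers summed to 90.6 to 116.6 FPKM in control mice, and to 382.7 in A4 (300.31 of it *Gfap*), 141.8 in A5 and 149.6 in A6. All depleted mice were thus above all control mice in this sum, with A4 highest. The part of the interferon response or of reactive astrocytes in the levels of *Icam1* and *Vcam1* was not tested.

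**Figure D3:**
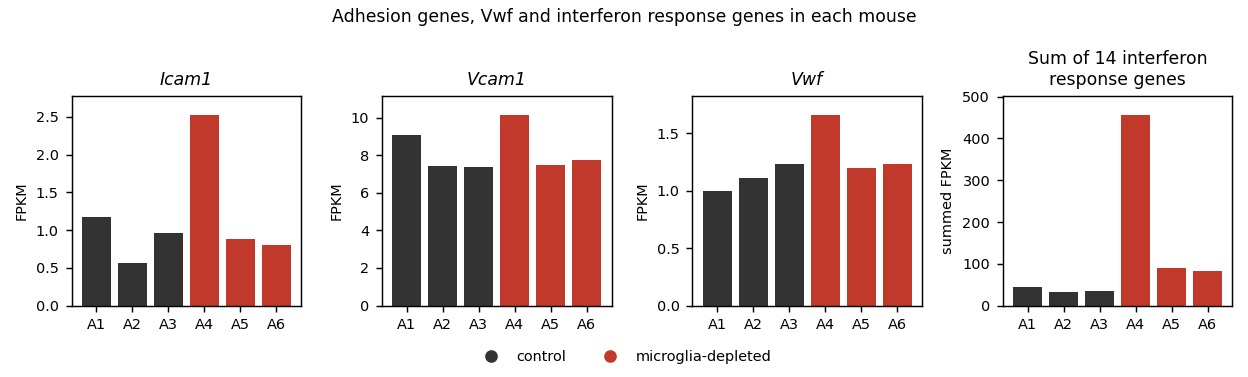
FPKM of *Icam1*, *Vcam1* and *Vwf* and summed FPKM of 14 interferon response genes (y axes, from 0) in each mouse (x axis), with control mice in black and depleted mice in red. A4 has the highest bar in each panel, and in *Icam1* A5 and A6 lie within the range of the control mice.

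The promoter of *Icam1* is shown because this gene varied most between mice, 4.52 times from lowest to highest. Of the 10 members, 7 had an entry in the RefSeq table, with 8 starts in all. The GAS of *Icam1* was the only exact match to the 5 motifs within the 250 bases before them. Near matches were not counted, and tggaaattcc in the *Icam1* sequence differs from the NF-kB consensus GGGRNWYYCC in its first base only. A GAS, the letters TTCNNNGAA on either strand, lies in 7.02% of the 32851 promoters of the table. The NF-kB consensus lies in 3.90% of them, the ISRE in 2.98%, the AP-1 site in 6.75% and the TATA box in 12.4%. In the sequence, chr9:21015690-21015939 of GRCm38.p6 on the + strand, capitals mark the GAS, from 42 to 34 bases before the start.
Icam1: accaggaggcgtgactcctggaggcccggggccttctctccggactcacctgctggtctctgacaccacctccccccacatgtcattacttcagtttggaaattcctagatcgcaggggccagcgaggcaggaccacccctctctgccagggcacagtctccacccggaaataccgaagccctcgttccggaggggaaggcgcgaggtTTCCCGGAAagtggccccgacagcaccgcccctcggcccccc

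Of 15 other adhesion genes and leukocyte integrins, 10 were tested. *Sele* and *Selp*, the endothelial selectins, were below the filter. The mean was higher in 5 and lower in 5, none with an unadjusted p-value under 0.05 in limma, and the median log2 fold change was -0.032. The highest was *Darc*, now named *Ackr1*, the chemokine-binding receptor of venules, at 29.54, 34.81 and 36.18 FPKM in control and 35.77, 37.36 and 40.98 FPKM in depleted mice (log2 fold change 0.18, adjusted p = 0.550 in limma). Its control mean of 33.5 FPKM was far above the 2.14 FPKM of *Pecam1*. Overlap with exons of other genes was checked for the 10 members only, and the source of the *Darc* reads was not tested. The lowest of the list was *Mcam*, at 4.86, 4.23 and 5.13 FPKM in control and 2.29, 5.21 and 3.09 FPKM in depleted mice (log2 fold change -0.39, adjusted p = 0.563 in limma), or -0.18 without A4, and A5 was its highest mouse. Of 14 NF-kB genes, 10 were tested, with a mean higher in 9 and lower in 1 and a median log2 fold change of 0.072, or -0.0090 without A4. The 1 gene that reached an unadjusted p-value under 0.05 was *Relb*, at 2.83, 2.43 and 3.12 FPKM in control and 6.09, 3.55 and 4.27 FPKM in depleted mice (adjusted p = 0.388 in limma). In that list *Ccl2*, a monocyte chemokine, had the highest log2 fold change, 0.69, and was at 4.02 FPKM in A4 and at most 0.17 FPKM in the other mice, so that its log2 fold change without A4 was -0.059. *Rela* had the lowest, -0.25 (adjusted p = 0.618 in limma), or -0.43 without A4.

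The pathways that surround the barrier were read from the same fit. In the Wnt list, which holds the ligands *Wnt7a* and *Wnt7b*, their receptors and targets, 21 of 22 genes were tested, with a mean higher in 6 and lower in 15 and a median log2 fold change of -0.055, or -0.012 without A4. None had an unadjusted p-value under 0.05 in limma. The highest was the receptor *Fzd4*, at 0.20 (adjusted p = 0.662 in limma), and the lowest *Reck*, a partner of the Wnt7 receptor complex, at -0.27 (adjusted p = 0.566 in limma). *Reck* was at 2.62, 2.25 and 2.36 FPKM in control and 2.03, 2.14 and 1.36 FPKM in depleted mice, which lay apart.

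Of 11 caveola and leakage genes, 10 were tested, with a mean higher in 6 and a median log2 fold change of 0.12, or 0.028 without A4. The gene with an unadjusted p-value under 0.05 was *Sdpr*, now named *Cavin2*, a coat protein of caveolae, at 2.7, 2.74 and 2.11 FPKM in control and 5.82, 2.83 and 5.13 FPKM in depleted mice (log2 fold change 0.63, adjusted p = 0.396 in limma). A5 was just above the control range. *Timp1*, a protease inhibitor, was highest at 1.00 and *Cav2* lowest at -0.28 (adjusted p = 0.513 and 0.656 in limma). Without A4, *Timp1* had a log2 fold change of 0.54. It was at 5.20 FPKM in A4 and ranged from 0.15 to 1.77 FPKM in control mice.

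Of 21 vascular growth factor genes, 17 were tested, with a mean higher in 8 and lower in 9 and a median log2 fold change of -0.054. *Vegfa*, the growth factor that drives vessel growth and leakage, was at 18.22, 17.78 and 18.77 FPKM in control and 11.39, 14.48 and 14.23 FPKM in depleted mice. The groups lay apart, and the log2 fold change was -0.43 (standard error 0.11, unadjusted p = 0.00334 and adjusted p = 0.370 in limma), or -0.33 without A4. *Bmp6* was the other gene of the list with an unadjusted p-value under 0.05 (log2 fold change -0.33, adjusted p = 0.451 in limma). The lowest was *Apln*, an endothelial tip cell peptide, at -0.50 (adjusted p = 0.550 in limma), or -0.15 without A4, and the highest *Tgfbr2* at 0.22 (adjusted p = 0.571 in limma).

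Markers of the cells that wrap the vessels were compared in the same way. All 10 pericyte markers had a lower mean in depleted mice, with a median log2 fold change of -0.30, or -0.16 without A4, beside -0.0085 over all genes tested. None was called, and 1, *Vtn*, had an unadjusted p-value under 0.05 in limma. That number was 3 without A4 and 0 without A1. *Vtn*, which encodes vitronectin, was at 34.44, 28.62 and 28.85 FPKM in control and 21.22, 26.87 and 22.32 FPKM in depleted mice, which lay apart (log2 fold change -0.37, adjusted p = 0.378 in limma). *Rgs5* was at 8.07, 6.38 and 5.78 FPKM in control and 3.27, 6.02 and 5.58 FPKM in depleted mice, which overlapped (log2 fold change -0.40, adjusted p = 0.526 in limma), or -0.18 without A4. Summed over the list, the level was 48.4 to 59.1 FPKM in control and 36.3 to 43.2 FPKM in depleted mice, and most of it was *Vtn*.

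Astrocyte endfoot markers had a lower mean in 9 of 10 genes, with a median log2 fold change of -0.11, and none had an unadjusted p-value under 0.05. Their most abundant genes, the glutamate carriers *Slc1a2* and *Slc1a3*, had log2 fold changes of -0.16 and -0.043 (adjusted p = 0.592 and 0.861 in limma), and that of *Slc1a2* was -0.061 without A4. *Slc1a2* was at 254.67, 251.10 and 236.82 FPKM in control and 194.38, 250.24 and 224.71 FPKM in depleted mice. Smooth muscle markers, 5 of 7 tested, had a median of 0.11, or -0.036 without A4. Fibroblast markers were lower on average in 7 of 8 genes with a median of -0.17, but 0.023 without A6. Relative to the control mean, A6 had a median of -0.54 over the list, while A4 was at 0.016 and A5 at -0.0094. *Igf2*, one of the list's most abundant genes, had an unadjusted p-value of 0.000949 in limma (log2 fold change -0.66, adjusted p = 0.293 in limma). Choroid plexus markers, which are not markers of cells that wrap vessels, were lower on average in 6 of 6 genes tested. Of these, 5 had an unadjusted p-value under 0.05 in limma, and *Ttr* was lowest, at a log2 fold change of -1.91. How far these cells contributed to the members' levels was not tested.

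**Figure D4:**
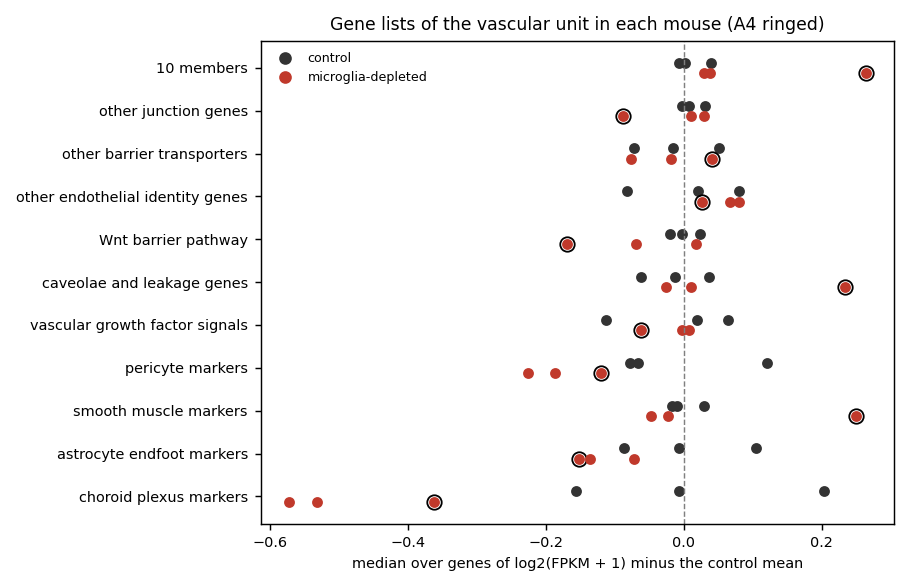
Median over each list's tested genes of log2(FPKM + 1) minus the control mean (x axis) in each mouse, control in black and depleted in red, with A4 ringed. The 10 members separate A4, at 0.26, from the other mice, and the pericyte and choroid plexus markers place all 3 depleted mice below all 3 control mice.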

How the data were processed

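Cortical poly(A) RNA of 6 mice was sequenced as 75 bp paired-end reads. The authors aligned reads with TopHat and quantified known transcripts with RSEM, and the processing notes name mm9. The authors deposited FPKM values per gene, scaled with TMM factors and rounded to 2 decimals, and versions and annotation are not given in the sources used here. Groups came from the sample titles, which give no batch or litter. The limma p-values set the difference between groups against the spread between mice within groups, moderated over all genes tested.

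Here, 14385 of 23366 genes, those averaging 0.5 FPKM or more, were taken to log2(FPKM + 1). They were fitted with limma 3.58.1 in R 4.3.3 (eBayes with trend, no covariate), with Benjamini-Hochberg adjustment over all of them. Calls were made under 0.1, a cutoff that the study also used. The study's own test was a different one, made on raw counts, and reported far more genes than the 4 called here. The members were not tested with the study's method. On the log2(FPKM + 1) scale, changes of low genes come out too small. Tested on simulated data for this comparison, the fit recovered 148 of 200 genes given a log2 change of 1 among 14385, and 8.64% of its calls were false. The noise was drawn separately for each gene, without features shared within a library such as those of A4. The largest log2 fold change of a member was 0.34, so this recovery does not apply to changes of the members' size. For single genes an exact permutation test over mice, two-sided, was added. Fragment totals were estimated from the spacing of low values in 1813 genes with 1 annotated transcript (GENCODE M21), and a gene's fragments from its longest coding transcript. The members and lists were chosen with earlier results of these data known. Named genes were the members, the highest and lowest log2 fold change of each pathway list, the 2 most abundant genes of each marker list, the sex-linked genes and the 5 genes most like *Cldn5* and *Icam1*; *Vegfa*, *Bmp6*, *Sdpr*, *Relb* and *Abcb1b* were added after their values were seen. Not every gene the rule names is reported here. Promoter sequences were from RefSeq (GRCm38.p6). Python 3.11.15, pandas 2.3.3, scipy 1.17.1 and matplotlib 3.10.9 were used.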

Additional observations from a re-analysis of the deposited data

How the results depend on the processing

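With 15 alternatives (quantile normalization, median-of-ratios scaling, a filter at 1 FPKM or none, a pseudocount of 0.1, a correction for GC content, array weights, eBayes without trend, each mouse left out, and A3 and A4 left out together), 0 of the 10 members were called in each. Of 150 recomputed log2 fold changes of members, 6 changed direction: *Vcam1* with array weights (-0.023), without A4 (-0.052) and without A3 and A4 (-0.096), *Icam1* without A4 (-0.031) and without A3 and A4 (-0.0003), and *Tjp1* without A3 (-0.014). With 1 mouse left out, these log2 fold changes ran from -0.014 to 0.07 for *Tjp1*, from -0.031 to 0.46 for *Icam1* and from -0.052 to 0.16 for *Vcam1*. Members at an unadjusted p-value under 0.05 numbered 2 with median-of-ratios scaling and 2 with eBayes without trend, 0 without A3 and A4, and 0 to 2 with 1 mouse left out, 0 without A1. The median log2 fold change of the members was 0.015 without A3 and A4 and between 0.043 and 0.16 with 1 mouse left out. All genes called numbered 2 with eBayes without trend, 20 with array weights, and 2 without A1 to 29 without A5. Why these counts moved was not tested beyond the construction of each alternative. Of 300 recomputed list medians, 16 moved by more than the spread between mice. No paired analysis was possible because the labels give the groups no shared replicate numbers. With 1 mouse left out, list medians near 0 took either sign, from -0.031 to 0.024 for the other junction genes, from -0.027 to 0.0525 for the other transporters, from -0.015 to 0.10 for the other endothelial identity genes, from -0.075 to 0.024 for the other adhesion genes, and from -0.098 to 0.0038 for the vascular growth factor genes. The estimated fragments in A5, the shallowest library, were 16 for *Icam1*, 36 for *Ocln*, 63 for *Pecam1* and 76 for *Vwf*.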

Other observations

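Within each mouse the members can be set against each other. The FPKM of *Mfsd2a* divided by that of *Cldn5*, a ratio chosen after the values were seen, was 2.09, 1.81 and 1.72 in A1 to A3 and 1.23, 1.27 and 1.30 in A4 to A6. The 3 depleted mice lay below the 3 control mice. The ratio of *Cldn5* to *Pecam1* was 3.71, 3.20 and 2.65 in control and 2.98, 3.03 and 2.68 in depleted mice, which overlapped. No test was made of these ratios.

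Over the 6 mice, the genes whose log2(FPKM + 1) was most like that of *Cldn5* were *Atp6v1e1*, *Smc6*, *Ccl5*, *Ccdc3* and *Trappc4*, with Pearson correlations from 0.989 to 0.993 and Spearman correlations from 0.928 to 0.986. These values describe 6 libraries of 2 groups that share their scaling, and with 14385 genes searched such values have no p here. *Ccl5*, a T cell and monocyte chemokine, was at 0.25, 0.37 and 0.20 FPKM in control and 11.67, 2.10 and 9.50 FPKM in depleted mice. A5 was the lowest depleted mouse in both genes, but *Ccl5* was picked by its likeness to *Cldn5*, so this is no separate result. Those most like *Icam1* were *Rnf39*, *Dnaic1*, *Tnpo1*, *Bbc3* and *Mdh2*, with Pearson correlations from 0.987 to 0.992 and Spearman correlations from 0.829 to 0.943. Each was highest in A4, like *Icam1*, by whose likeness they were picked. Among the members, by Pearson correlation, *Pecam1* was most like *Cldn5* at 0.90 and *Vcam1* most like *Icam1* at 0.91. The Spearman correlations of these pairs were 0.812 and 0.6.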
